A study of Mus musculus and Rattus norvegicus with 6 samples.

Results

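The liver of a leptin-deficient mouse was compared with that of a wild-type (WT) mouse on short-oligonucleotide arrays, both after an injection of saline. Both groups were male, 20 weeks old and of the C57/BL6J background, and the livers were taken 6 h after an intraperitoneal injection. The mutant was homozygous for Lepob (Lepob/Lepob), and the WT group were control littermates. The allele removes leptin from the whole animal, so effects of the hormone on liver cells and effects of obesity are not separated by this design. The 2 arrays were chosen by their labels from 6 arrays in all, 3 of mice and 3 of rats. A further mouse array, Lepob/Lepob injected with recombinant murine leptin, is set beside them throughout, and it shares the WT array as its control. Each group held 1 array, and the labels do not say whether its RNA came from 1 animal or from a pool. The spread between animals is therefore unknown, and the ratios are given without tests or p-values.

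Leptin is the hormone that adipose tissue releases in proportion to its fat store, and its receptor in the hypothalamus restrains food intake. Mice without it overeat, become obese and insulin resistant, and store triglyceride in the liver. The growth hormone axis is also blunted in such mice. In mouse liver the pulsatile growth hormone of males acts through the transcription factor STAT5B and keeps a male pattern of expression of steroid- and drug-metabolising genes, which differs from the female one.

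A measurement here is the signal of a probe set, a group of short probes against 1 transcript, in the arbitrary units that the authors' software assigned. Signals are given in the order WT saline, Lepob/Lepob saline, Lepob/Lepob leptin. A gene was represented by its brightest probe set. It was counted as measured if either saline array reached a signal of 82.7, the floor, which left 11956 genes. Lower signals were raised to the floor before the ratio of Lepob/Lepob saline over WT saline was taken, and such a ratio is a bound. A fold of this kind is written "at least", and a log2 ratio is a bound in the same way wherever a signal was under the floor. "Higher" and "lower" without a size mean at least 2-fold, a log2 ratio of 1 or more either way. Where a gene had several measured probe sets, their log2 ratios spread with an SD of 0.45, pooled over 5333 genes. This figure holds differences between probe sets of a gene and no spread between animals. Levels of different genes are not compared, since probe sets differ in how strongly they bind.

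The 3 mouse arrays had the same scaling, with trimmed means of 496, but their medians differed: 91.9 on the WT array, 77.0 on the mutant array and 79.1 on the leptin array. The highest signals differed as well, at 80930.2, 54634 and 56512. Lep itself, the leptin transcript, gave signals of 4, 3.2 and 2.8, far under the floor on every mouse array, so the liver gave no check of the genotype label. Transcripts of the Y chromosome were measured on all 3 arrays: Uty at 600.4, 586 and 564, Eif2s3y at 3136, 2763 and 2709 and Kdm5d at 515, 416 and 513. Xist, the transcript of the inactive X chromosome, stayed under the floor on its 3 probe sets. These values matched the male label of each array. Markers of hepatocytes, the main cells of the liver, were present throughout: 18 were measured and 0 differed 2-fold, with albumin (Alb) at 47895, 35699.7 and 35899.

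Over all genes the 2 saline arrays differed little at the centre and widely at the edges. The median log2 ratio was -0.03, the quartiles were -0.34 and 0.31, and the median size of the log2 ratio was 0.33. Of the 11956 genes, 533 (4.46%) were at least 2-fold higher in Lepob/Lepob liver and 443 (3.71%) at least 2-fold lower, 976 (8.16%) in all. At 4-fold the counts were 93 and 54, at 8-fold 36 and 20, and at 32-fold 7 and 5. Among the higher genes 97 had the WT array under the floor, and among the lower genes 73 had the mutant array under it. The split between directions depends on the scaling. With arrays centred on their medians, which put the median log2 ratio of all genes at 0.22, 962 genes were higher and 235 lower. After quantile normalisation 662 were higher and 352 lower. At the very top of the range the 2 arrays also parted: of 191 genes with a mean signal of 20000 or more, 143 had a ratio below 0, their median was -0.20, and quantile normalisation brought that median to 0. The median of 62 of the 68 lists examined stayed on the same side of the median of all genes under both scalings. The exceptions were lipoprotein assembly and receptors, bile acids, the urea cycle, organic ion and nutrient transporters, ATF4 targets, and markers of pancreas and kidney.

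**Figure D1:**
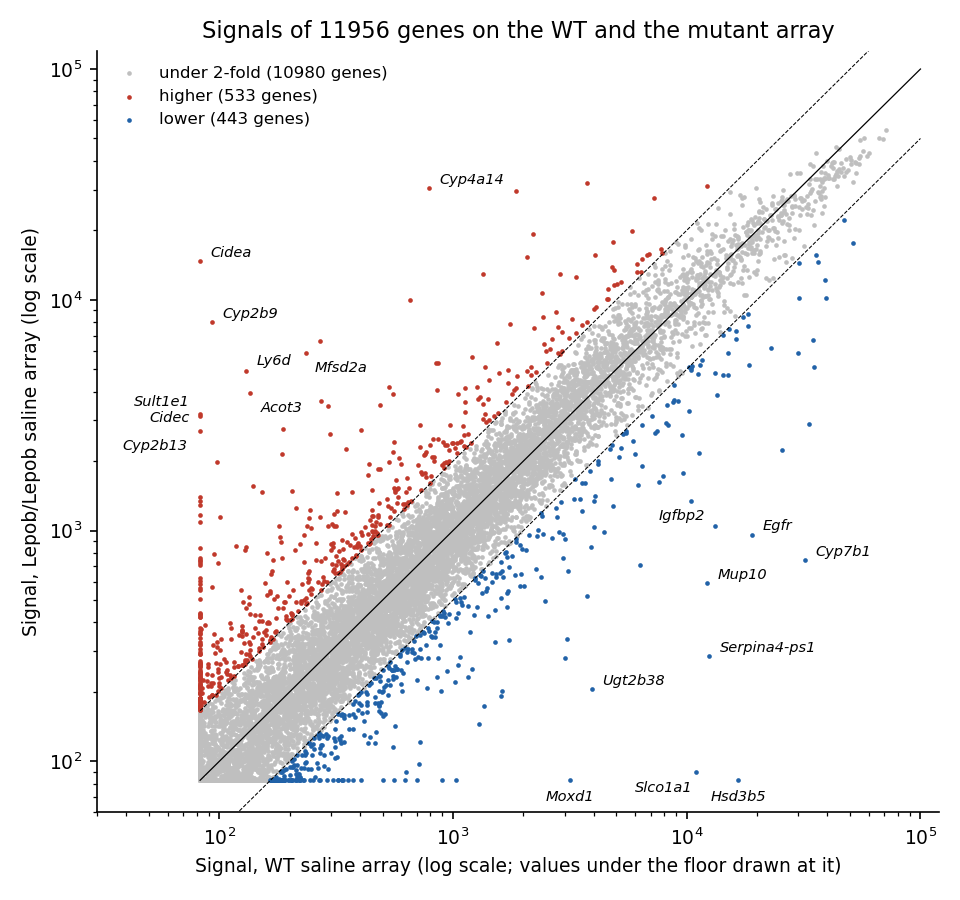
Signal of each of 11956 genes on the WT saline array (x axis) and the Lepob/Lepob saline array (y axis), both log scales in arbitrary units, 1 point per gene; dashed lines mark 2-fold. The 533 higher genes (red) include Cidea, with a signal of 14758 on the mutant array, and the 443 lower genes (blue) include Hsd3b5, which went from 16593 to under the floor; the brightest genes lie mostly just under the diagonal.

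Genes whose liver expression differs between male and female mice were far from WT, and the male-biased list had the lowest median of the 68 lists. In the male-biased list 18 of 21 measured genes were lower and 0 higher, with a median log2 ratio of -2.96. In the female-biased list 17 of 28 were higher and 0 lower, with a median of 1.67. Both lists thus stood far from the 4.46% and 3.71% of all genes that were higher and lower.

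Hsd3b5, a steroid dehydrogenase typical of male mouse liver, had signals of 16593, 4.4 and 5.7 and was at least 201-fold lower. Slco1a1, a transporter that takes organic anions into hepatocytes, had 11001, 90.2 and 269 and was 122-fold lower, and its other probe set gave a log2 ratio of -6.14, a bound. Cyp7b1 hydroxylates oxysterols and sex steroids. Its signals were 32075, 745 and 1306, a 43.0-fold lower value, and a second bright probe set gave -5.23. Serpina4-ps1, which is annotated as a serpin pseudogene, was lower on all 3 of its probe sets, with 12475, 286 and 548 on the brightest and log2 ratios from -5.45 to -4.48. Moxd1, a monooxygenase related to dopamine beta-hydroxylase, went from 3176 to 22.7 and 1.7. All 5 of these genes were far from WT on both mutant arrays.

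The remaining male-biased genes covered secreted, lipid and conjugating functions. The urinary pheromone carrier Mup10 had signals of 12189, 594 and 794, the glucuronosyltransferase Ugt2b38 3912, 205 and 221, and the elongase of very long fatty acids Elovl3 25627, 2237 and 2173. Susd4, a complement regulator, had 1296, 144 and 148. Smaller ratios were seen for the sulfotransferase Sult5a1 (3.80-fold lower), the peroxisomal coenzyme A diphosphatase Nudt7 (3.21-fold lower), the fatty acid omega-hydroxylase Cyp4a12a (3.19-fold lower) and the steroid dehydrogenase Hsd17b2 (2.17-fold lower). Cyp2d9, Gstp1 and Nat8f5 were the 3 that stayed under 2-fold, at log2 ratios of -0.72, -0.58 and -0.42. Probe sets for near-identical copies of the Mup, Ugt2b, Cyp2b, Cyp2c, Cyp4a and Hsd3b genes may bind more than the gene they are named for, so the member of the family is uncertain.

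Among female-biased genes, Cyp2b9, a cytochrome P450 of female liver, had signals of 93.4, 8032 and 5645 and was 86.0-fold higher. Cyp2b13, its close relative, had 47.5, 2688 and 501, so the leptin array lay between the other two. Sult1e1, the sulfotransferase that inactivates estrogens, had 2.8, 3187 and 4601 and was at least 38.5-fold higher. Cyp17a1, a steroid hydroxylase and lyase, had 186, 2151 and 2618. The drug efflux pump Abcb1a had 59, 742 and 543, and the flavin monooxygenase Fmo2 159.6, 525 and 552. Hao2, a peroxisomal hydroxyacid oxidase, had 8.8, 273 and 177. The 11 female-biased genes that did not reach 2-fold included Cux2, a transcription factor of female liver, at a log2 ratio of -0.23, Cyp3a44 at a bound of -0.96, and Fmo4 at -0.57. Some members of this list, such as Cyp4a14 and Acot3, are also known targets of the fatty acid receptor PPARA, and Cd36 and Vldlr act in lipid uptake.

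**Figure D2:**
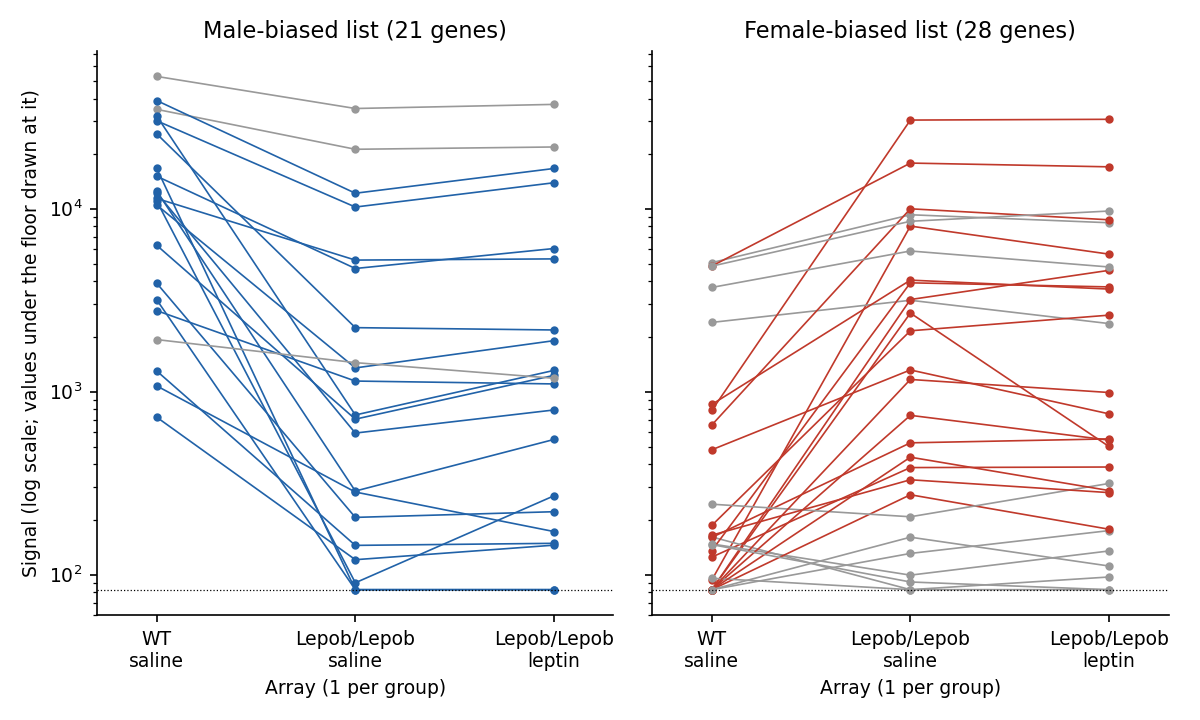
Signals (log scale, arbitrary units) of the 21 measured male-biased and 28 measured female-biased genes on the WT saline, Lepob/Lepob saline and Lepob/Lepob leptin arrays; a line joins the values of a gene, red and blue mark genes at least 2-fold higher or lower in Lepob/Lepob saline, and the dotted line is the floor. The blue lines of 18 male-biased genes run down from the first to the second array and the red lines of 17 female-biased genes run up; Cyp2b13, at 501 on the leptin array against 2688 on the saline one, is among the lines that bend back.

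The growth hormone axis itself, which sets those sex patterns in mice, had 5 of 21 genes lower and 0 higher, against 3.71% of all genes lower. Socs2, a feedback inhibitor that STAT5 induces, had signals of 3742, 518 and 668 on its brightest probe set. The next brightest gave 2442, 412 and 574, while 2 dim ones gave log2 ratios of -1.05 and -0.27. Cish, another such inhibitor, had 1460.5, 598 and 415 and was 2.44-fold lower. Igfals, the acid-labile subunit that carries insulin-like growth factors in plasma, had 2056, 825 and 965. Onecut1, a hepatocyte transcription factor also called HNF6, had 1625, 202 and 238 and was 8.03-fold lower. Igfbp2, a carrier of insulin-like growth factors that leptin is known to induce, had 13241, 1045 and 1466, 12.7-fold lower. Igf1, the main growth factor induced by growth hormone, was at 17086, 12440.2 and 13241, a log2 ratio of -0.46. Ghr, the growth hormone receptor, was at -0.28. Stat5b was at -0.88 and Bcl6, a repressor of male liver, at -0.04. The list's lower genes are thus feedback inhibitors, carriers and Onecut1, while the kinase pathway's own members stayed under 2-fold.

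Receptors for other growth factors mostly stayed under 2-fold. Of 14 receptor tyrosine kinases 1 was lower and 0 higher. That gene was Egfr, the receptor of epidermal growth factor, with signals of 19015, 959.6 and 2094 (19.8-fold lower). Of its 5 other measured probe sets 4 gave log2 ratios between -3.30 and -1.33, and a dim one, at 96.8, 99.1 and 87.6, gave 0.03. Of 12 ligands and inhibitors 3 were higher and 0 lower, with a median of 0.14. The higher ones were all ligands. Fgf21, the hormone of fasting liver, had 180, 1045 and 1258, the neuregulin Nrg4 133, 479 and 424 and betacellulin, Btc, 125, 261 and 190.2. The leukaemia inhibitory factor receptor Lifr was lower on all 3 of its probe sets, with 9500.5, 2596 and 2717 on the brightest and log2 ratios from -3.37 to -1.31. Avpr1a, the hepatic vasopressin receptor, had 1026, 82.9 and 85.3, 12.4-fold lower.

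Hepatokines, proteins by which the liver signals to other tissues, split: 3 of 22 were higher and 5 lower. Besides Fgf21, the activin subunit Inhbe was higher, at 819, 2502 and 2809. Inhbb, another activin subunit, was higher at 142, 430.1 and 375, although its second probe set had a log2 ratio of -0.85. The activin subunit Inhba was lower, at 1052, 261 and 308, as was its antagonist follistatin (Fst), at 339.7, 158 and 138. Enho, which encodes the peptide adropin, had 899.6, 42.3 and 11 and was at least 10.9-fold lower. A second Enho probe set gave 734, 5.9 and 8.4 and a dim one a log2 ratio of -0.08. Fetub, a fetuin of plasma, had 10546, 5168 and 6246, and Igfbp2 was the fifth lower member. In the list of leptin and insulin signalling 3 of 24 were higher, Lepr, Inhbe and the pseudokinase Trib3 at 277, 627 and 731, and 0 lower. The insulin receptor Insr was at a log2 ratio of 0.17, its substrates Irs1 and Irs2 at -0.40 and -0.31, and Stat3, the transcription factor of leptin receptor signalling, at -0.75. Lepr had 82.1, 257 and 276 on its brightest probe set and 123, 92.6 and 110.1 on another, so its direction differs between probe sets.

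Lipid droplets are the organelles that hold triglyceride, and 8 of 22 of their genes were higher and 0 lower, against 4.46% and 3.71% of all genes. Cidea, which fuses small droplets into larger ones, had signals of 18.8, 14758 and 13498. Cidec, its relative with the same role, had 32.6, 3144 and 2808. Cideb, the family member that hepatocytes normally use, had 8088, 8532 and 8036, a log2 ratio of 0.08. Among coat proteins, Plin4 had 187, 2746 and 2545 and was 14.7-fold higher. Plin2, the usual coat of hepatocyte droplets, had 15354, 23598 and 24551, a log2 ratio of 0.62, and Plin5, which ties droplets to mitochondria, had 1.02. Fitm1, which helps droplets bud, had 1566, 4830.4 and 4891, and Hilpda and G0s2 inhibit the triglyceride lipase. Hilpda had 106, 242 and 149.9 and G0s2 had 4906, 11569 and 11608. That lipase, Pnpla2, and its activator Abhd5 had log2 ratios of -0.16 and -0.25, whereas monoglyceride lipase (Mgll) was higher on all 3 of its probe sets, with 3240.1, 8218 and 8625 on the brightest.

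Triglyceride synthesis showed the same contrast between a few genes far from WT and a pathway near it. Of 14 genes 3 were higher, all of them acyltransferases, and 0 lower. Gpat3, which acylates glycerol phosphate, had signals of 97.3, 1984 and 1969. Mogat1, which builds diglyceride from monoglyceride, had 52.6, 1290.4 and 915, and Mogat2 had 15.5, 296 and 229.7. The last step, Dgat1 and Dgat2, had log2 ratios of 0.58 and -0.25, and the mitochondrial acyltransferase Gpam 0.99. No phosphatidate phosphatase of 5 reached 2-fold. In fatty acid uptake and binding, Cd36, the fatty acid translocase, was higher on all 3 probe sets, with 657, 9986 and 8695 on the brightest and log2 ratios from 3.93 to 4.35. The binding proteins divided. Intestinal Fabp2 had 4054, 15578 and 15796, adipocyte Fabp4 had 1125, 3251 and 3138, and brain Fabp7 had 421, 1034 and 877, all higher, while epidermal Fabp5 had 7576, 1629 and 1550.1 and was 4.65-fold lower. Fabp1, the liver form, had 71299, 54634 and 56512. The medium-chain acyl-CoA synthetases were lower, Acsm2 at 220.2, 55.6 and 42.8 and Acsm1 at 10418, 5074 and 5795.

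Fatty acid synthesis had no common direction, with 3 of 19 genes higher and 2 lower and a median of -0.37. The synthase Fasn was at a log2 ratio of -0.49, ATP citrate lyase (Acly) at -0.90 and the carboxylases Acaca and Acacb at 0.55 and -0.92. Thrsp, a lipogenic regulator, had 6406, 15005 and 8836, the dicarboxylate carrier Slc25a10 had 2588, 6135 and 5518, and Pdk1, which restrains pyruvate dehydrogenase, had 2863, 5826 and 5034, and these were the 3 higher genes. Mlxipl, the glucose-sensing transcription factor ChREBP, had 8706, 3610.3 and 4045, and Insig1, which holds sterol-sensing factors in the endoplasmic reticulum, had 5130, 2083 and 2464, both lower. Among desaturases and elongases, Scd2 was higher at 239, 626 and 523 and Elovl7 at 40.8, 231 and 163, and Elovl3 was the only one of 17 lower.

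Sterol synthesis, the route from acetyl-CoA to cholesterol, lay below WT in most of its steps. Of 21 genes 11 were lower and 0 higher, against 3.71% and 4.46% of all genes, with a median of -1.02. In the mevalonate steps Fdps, which makes farnesyl diphosphate, had signals of 7932, 1729.8 and 2361, the isomerase Idi1 4825, 1278 and 1434 and mevalonate kinase (Mvk) 428, 163 and 162. In the sterol steps squalene epoxidase (Sqle) had 699, 225 and 299, lanosterol demethylase (Cyp51) 2002, 577 and 622, the methyl sterol oxidase Msmo1 4047, 1412 and 1712 and the last reductase Dhcr7 1406, 425 and 535. The other 4 lower genes were Nsdhl (-1.14 as a log2 ratio), Lss (-1.06), Tm7sf2 (-1.03) and the sterol carrier Stard4 (-1.02). Members near WT were the first enzyme Hmgcs1 at -0.35, squalene synthase (Fdft1) at -0.05 and Hsd17b7 at 0.12.

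Acyl-CoA thioesterases release fatty acids from coenzyme A, and the whole list lay above WT. All 10 measured members had a log2 ratio above 0 and the median was 1.73. The count of higher genes was 6 and that of lower ones 0. The 5 genes of the cluster on chromosome 12 lay next to each other among measured genes and were all higher on their brightest probe sets. Cytosolic Acot1 had signals of 1054, 3894 and 4739, and mitochondrial Acot2 had 404, 2734 and 2679. Of the peroxisomal members, Acot3 had 135, 3933 and 3737, Acot4 had 243, 1135 and 1063, and Acot6 had 78.5, 248 and 221. The Acot6 ratio is a bound, and its other measured probe set, at 95.6, 102.1 and 54.1, gave a log2 ratio of 0.09. These 5 genes are close copies, and probe sets may bind more than 1 of them. Outside the cluster, mitochondrial Acot9 had 211, 820.5 and 718, while Acot12, Acot8 and Acot7 were at log2 ratios of 0.32, 0.37 and 0.15.

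The other genes of fatty acid oxidation are taken by compartment. In the mitochondrion 5 of 25 were higher and 0 lower (median 0.56). Cpt1a, the carnitine palmitoyltransferase that gates entry, had 4588, 11099 and 12645. The mitochondrial carnitine carrier Slc25a20 had 6782, 15667 and 15288, and the cell's carnitine importer Slc22a5 had 751, 2129 and 2156. Acad10, an acyl-CoA dehydrogenase, had 272, 741 and 613, and the isomerase Eci2 had 4902, 13518 and 12992. The trifunctional protein subunit Hadha (-0.03 as a log2 ratio) and very long chain dehydrogenase Acadvl (0.03) were near WT. In peroxisomes 3 of 27 were higher: Abcd2, a transporter of very long chain acyl-CoA, with 42.4, 763 and 630.3 and 3 probe sets all higher, the division factor Pex11a with 2761, 8889 and 8267, and the thiolase Acaa1a with 894, 1917 and 2042. Pxmp4 was lower, at 4173, 1946 and 2619. In the microsomal list Cyp4a14, an omega-hydroxylase, had 789, 30507 and 30799 (38.7-fold higher), the pantetheinase Vnn1 had 2072, 15254 and 15283, and the fatty aldehyde dehydrogenase Aldh3a2 had 3358, 12525 and 12407. Other omega-hydroxylases went the other way, Cyp4f14 at 4016, 1040 and 1170.5 and Cyp4a12a at 15045, 4710.1 and 6056. Of the nuclear receptors for fatty acids, Pparg was higher at 222, 878 and 919.6 and Ppara at 2229.8, 7564 and 7609.8, while Ppard was at a bound of -0.69 as a log2 ratio.

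**Figure D3:**
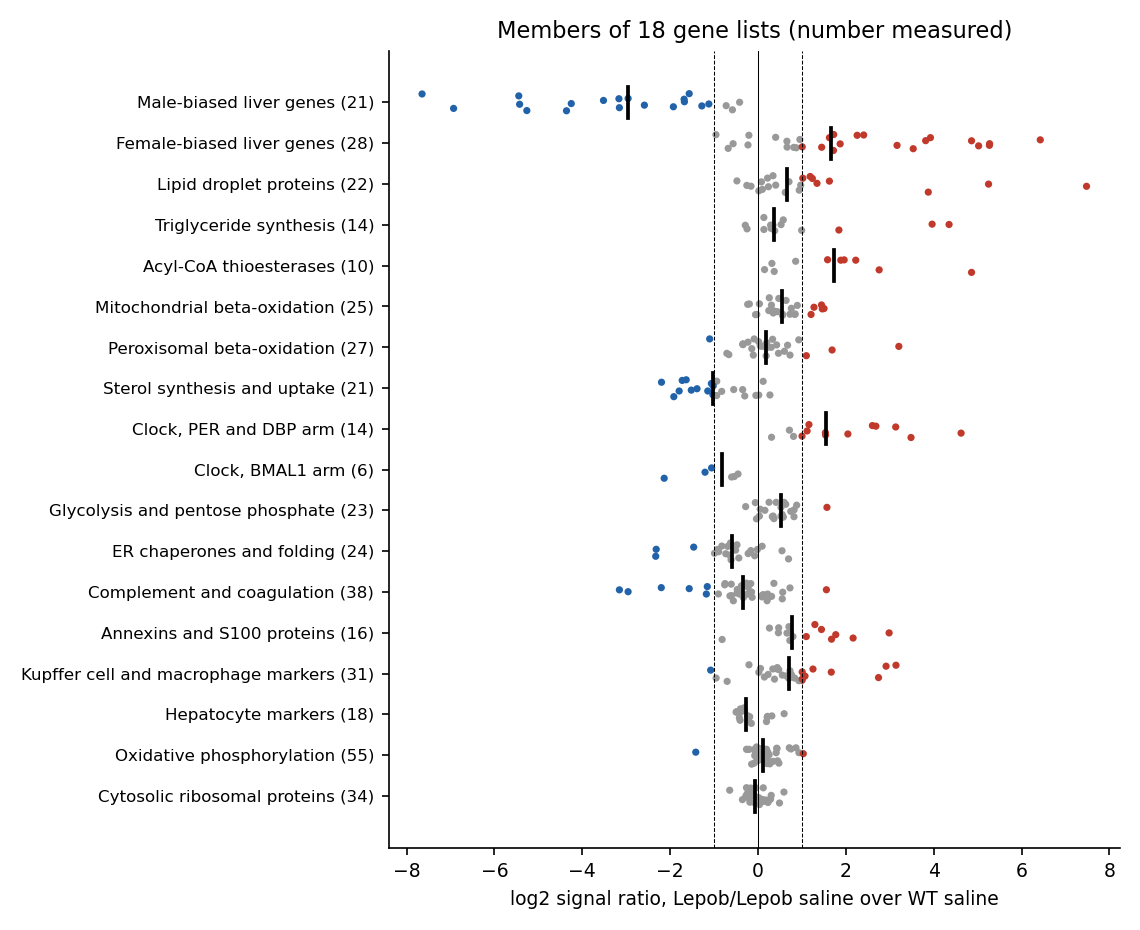
Log2 signal ratio of Lepob/Lepob saline over WT saline (x axis) for each measured member of 18 gene lists, 1 point per gene, with the number measured in brackets; bars mark list medians, dashed lines 2-fold, and red and blue the genes at least 2-fold higher or lower. The male-biased list has its median at -2.96, sterol synthesis at -1.02, the acyl-CoA thioesterases at 1.73 and the PER and DBP arm of the clock at 1.54, while ribosomal proteins and oxidative phosphorylation cluster at 0.

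Most apolipoproteins, the protein parts of plasma lipid particles, stayed under 2-fold: 2 of 16 were higher and 1 lower. Apoa4, made in liver when it is loaded with fat, had signals of 3759, 32055 and 33460.1 (8.53-fold higher), and its other probe set gave a log2 ratio of 3.62. Apoc2, the cofactor of lipoprotein lipase, had 12156, 31209 and 29838. Apom, which carries sphingosine phosphate on HDL, had 15078, 5891 and 5836. Apob, the backbone of VLDL, had 33521, 38883 and 40558, and Apoa1, that of HDL, had 66649, 50209 and 51395. Among lipoprotein receptors, Vldlr had 71.2, 1166 and 989, and its 4 dimmer measured probe sets gave smaller log2 ratios, from 0.46 to 1.94. The lipolysis-stimulated receptor Lsr had 3114, 671 and 712, and the sorting receptor Sort1 831, 400 and 516. The phospholipid transfer protein Pltp had 1274, 3707 and 4206. Bile acid genes had 2 of 24 higher and 4 lower: Cyp7a1, the rate-limiting enzyme of bile acid synthesis, had 1116, 2602 and 3222 and the basolateral exporter Abcc4 166, 649 and 529. A dimmer probe set of Cyp7a1, at 362, 354.4 and 368.1, gave a log2 ratio of -0.03. Besides Cyp7b1, the lower ones were the 12-alpha-hydroxylase Cyp8b1 at 10434, 4972 and 6623, the canalicular export pump Abcb11 at 14314, 7027 and 7609 and the uptake transporter Slc10a2 at 462, 120.2 and 204.

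Glucose and amino acid metabolism held few genes 2-fold apart. Glycolysis and the pentose phosphate pathway had a median of 0.52 with 1 of 23 higher, hexokinase 2 (Hk2) at 176, 523 and 371, and 0 lower. Liver pyruvate kinase (Pklr) was at 961, 1698 and 1299 on its brightest probe set, but its 2 other probe sets had log2 ratios of -0.95 and -1.30. In gluconeogenesis 4 of 20 were higher: the alanine transaminase Gpt2 at 7217, 27484 and 24674, the glucose-6-phosphate transporter Slc37a4 at 3557, 7787 and 6290.3, the forkhead factor Foxo3 at 762, 1767 and 1827, and the kinase Sik1 at 138, 278 and 280.1, with a dimmer Sik1 probe set at a log2 ratio of -0.21. The gluconeogenic enzyme Pck1 had 25389, 23838 and 25754.5 on its brightest probe set, a log2 ratio of -0.09. Another Pck1 probe set had 9693, 2401 and 2168, a log2 ratio of -2.01, so its value depends on the probe set. In glycogen metabolism the branching enzyme Gbe1 had 2146, 4726 and 3788, and the primer protein glycogenin, Gyg, had 309, 684 and 711, both higher. Of 9 urea cycle genes 0 were higher and 0 lower. In amino acid catabolism 1 of 27 was lower, kynureninase (Kynu) at 5316, 2629 and 2574, and 0 higher. Cystathionine beta-synthase (Cbs), which commits homocysteine to cysteine synthesis, had 8156, 2913 and 3365. Oxidative phosphorylation, with 1 higher and 1 lower of 55, and cytosolic ribosomal proteins, with 0 and 0 of 34, lay closest to WT among the larger lists. The cytochrome oxidase subunits Cox7a1 and Cox7c were the exceptions, at log2 ratios of 1.03 and -1.42. Among mitochondrial carriers Slc25a30 was lower on all 4 measured probe sets, with 9620.5, 1768 and 1974 on the brightest, at log2 ratios from -3.75 to -2.36.

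The circadian clock of the liver is a loop in which BMAL1 (the product of Arntl) and CLOCK bind E-boxes, CACGTG, and switch on the Per and Cry repressors and the output factor Dbp, which acts through D-boxes, TTATGTAA. Genes of the PER and DBP arm and of the BMAL1 arm peak at opposite times of day. In the first, 11 of 14 genes were higher and 0 lower, with a median of 1.54. In the second, 3 of 6 were lower and 0 higher, with a median of -0.83. Dbp had signals of 268, 6612 and 7859 (24.7-fold higher), and its other probe set a log2 ratio of 4.54. The deubiquitinase Usp2 had 139, 1553 and 1368, Per3 26.5, 726 and 590.4, Per2 129, 826 and 749.9, the repressor Ciart 17.8, 503 and 418 and the kinase Wee1 184, 762 and 741. Hlf, Cry2, Per1, Tef and Bhlhe40 had log2 ratios from 1.00 to 1.54. The repressors Nr1d1 and Nr1d2, at 0.31 and 0.72, and Tspan4, at 0.81, did not reach 2-fold. In the opposite arm Arntl had 889.7, 202 and 156, its partner Npas2 191, 6.8 and 5.2, and Nfil3, a repressor of D-boxes, 1686, 811 and 647. The hour of collection is not among the labels of either mouse, so the time of day and the genotype cannot be told apart in these values.

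Upstream sequence is shown for 3 clock genes whose promoters hold these elements. It is the 250 bases before the annotated start in RefSeq (GRCm38.p6), 5′ to 3′ on the strand of the gene, with the matches in capitals. Ciart, at chr3:95882229-95882478 on the minus strand, has 3 E-boxes, starting at -116, -58 and -44 from the start. Per1, at chr11:69098699-69098948 on the plus strand, has 1, at -166. Per3, at chr4:151044666-151044915 on the minus strand, has 2 D-boxes, at -205 and -158.
Ciart: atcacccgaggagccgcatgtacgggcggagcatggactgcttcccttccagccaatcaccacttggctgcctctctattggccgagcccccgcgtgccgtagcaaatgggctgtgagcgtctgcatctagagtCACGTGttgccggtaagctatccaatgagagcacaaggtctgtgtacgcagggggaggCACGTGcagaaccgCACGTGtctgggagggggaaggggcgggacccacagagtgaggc
Per1: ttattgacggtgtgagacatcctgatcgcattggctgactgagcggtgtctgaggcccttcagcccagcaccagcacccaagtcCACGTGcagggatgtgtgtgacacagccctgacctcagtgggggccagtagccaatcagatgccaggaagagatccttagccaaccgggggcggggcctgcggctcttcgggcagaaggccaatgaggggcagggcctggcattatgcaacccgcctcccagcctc
Per3: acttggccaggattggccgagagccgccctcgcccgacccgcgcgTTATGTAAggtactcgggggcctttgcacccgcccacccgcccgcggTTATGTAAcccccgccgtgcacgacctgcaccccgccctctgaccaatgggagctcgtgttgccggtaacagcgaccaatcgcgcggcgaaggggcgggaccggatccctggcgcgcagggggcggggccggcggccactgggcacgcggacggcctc
Both motifs were searched on both strands, and their letters cannot overlap. Of 32851 such windows in the RefSeq table, 6.02% held an E-box and 20 held 3 or more, and 0.819% held a D-box and 6 held 2 or more. Windows were found for 11 of the 14 genes of the PER and DBP arm, and an E-box for 4 of these: Ciart, Per1, Tef and Tspan4. Per1 and Tspan4 have it in only 1 of their windows. A D-box was found for 1 of the 11, Per3. Of the 6 genes of the BMAL1 arm 1 had an E-box, Cry1, and 0 had a D-box. A match is a run of letters in this window, and genes without one, Dbp among them, may carry elements elsewhere.

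Metallothioneins, small proteins that bind zinc and copper, were far above WT. Mt1 had signals of 1852, 29583 and 32941 and Mt2 2193, 19183 and 20619.7, and a dim probe set of Mt1 gave a log2 ratio of 2.39, a bound. Both are induced by metals through MTF1, which binds metal response elements with the core TGCACNC or TGCGCNC, and by glucocorticoids. Their upstream sequences are shown because the pair lies side by side on chromosome 8 and differed from WT together. The window is that used for the clock genes, Mt2 at chr8:94172368-94172617 and Mt1 at chr8:94178839-94179088, both on the plus strand, with the core matches on either strand in capitals.
Mt2: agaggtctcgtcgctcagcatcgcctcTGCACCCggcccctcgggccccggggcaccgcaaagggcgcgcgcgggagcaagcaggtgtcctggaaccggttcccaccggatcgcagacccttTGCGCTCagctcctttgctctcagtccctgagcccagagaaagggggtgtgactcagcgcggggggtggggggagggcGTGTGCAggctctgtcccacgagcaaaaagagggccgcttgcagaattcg
Mt1: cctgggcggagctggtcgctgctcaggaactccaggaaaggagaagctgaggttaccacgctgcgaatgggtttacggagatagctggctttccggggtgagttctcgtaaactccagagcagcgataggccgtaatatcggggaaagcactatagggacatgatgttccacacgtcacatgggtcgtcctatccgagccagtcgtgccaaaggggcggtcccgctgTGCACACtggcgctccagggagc
Mt2 has 3 matches, starting at -223, -128 and -50, and Mt1 has 1, at -23. Of all 32851 windows 21.4% held a match on either strand and 415 held 3 or more, so a single match is not rare. A match was found for 6 of the 9 genes of the metallothionein and zinc list with a window. The higher genes of the list, Mt1, Mt2 and Slc39a5, all have a match, Slc39a5 in only 1 of its windows. Slc30a10, which was lower, also has 3 matches. Among genes under 2-fold, Slc30a1 has 1 and Slc39a8 has 1 in only 1 of its windows, while Mtf1, Slc30a7 and Slc39a1 have none. Whether the matches go with direction was not tested. Of the other zinc genes the transporter Slc39a5 was higher, at 12.1, 244 and 282, and the manganese exporter Slc30a10 lower, at 1466, 656 and 644. Mtf1 was at a log2 ratio of -0.72 on its brightest probe set, with others at -0.53 and 0.37, and the zinc exporter Slc30a1, a further MTF1 target, at 0.11.

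Drug and steroid metabolism differed gene by gene within families. Of 31 cytochromes P450 of families 1 to 3, 4 were higher and 8 lower. The higher ones were the female-biased Cyp2b9, Cyp2b13, Cyp2c38 and Cyp2c39. Cyp2c38 had signals of 851, 4069 and 3635, and Cyp2c39 had 125, 384 and 387. Other members of the Cyp2c family, which oxidise fatty acids and drugs, were lower. Cyp2c55 had 1732, 337 and 266, Cyp2c70 had 29908, 5871 and 5156, Cyp2c54 had 18439, 5234 and 5466, and Cyp2c23 had 14326, 4698 and 5135. Cyp2c29 and Cyp2c37 were lower by less, with log2 ratios of -1.10 and -1.08. Cyp1a2, a caffeine-oxidising enzyme of the pericentral liver, had 22922, 6164 and 5158, and Cyp2u1, from the male-biased list, 725, 121 and 145. Cyp2e1 and Cyp3a11 had log2 ratios of -0.40 and -0.40.

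Among conjugating enzymes, glutathione transferases had 6 of 18 higher and 0 lower. Microsomal Mgst3 had signals of 554, 3896 and 2867, Gstm3 had 2869.6, 12895 and 9222, and Gstm2 had 1716, 4981 and 4768. Gstt3, Gstt2 and Gsta2 had log2 ratios of 1.34, 1.24 and 1.20. Glucuronosyltransferases had 3 of 11 lower and 0 higher: Ugt2b38, Ugt2b1 at 36552, 14546 and 17136 and Ugt2b37 at 360, 158 and 106. The carbonyl reductases Cbr1 and Cbr3, neighbours on chromosome 16, were both higher, Cbr1 at 2455, 6447 and 6257 and Cbr3 at 101, 1145 and 908. The quinone reductase Nqo1, a target of the antioxidant factor NRF2, had 230.4, 729.6 and 524, and Osgin1, another such target, had 6155, 1575 and 1446. They were the only ones of 17 genes in that list that reached 2-fold, in opposite directions. In the retinoid list the dehydrogenases Rdh16 and Rdh9 were higher, the first at 719, 2877 and 2681 and the second at 2815, 7603 and 6271. The retinoic acid hydroxylase Cyp26a1 was lower at 3566, 1210 and 1117, as was the reductase Rdh11 at 1524, 626 and 724.

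Transporters of organic ions and nutrients had 6 of 38 higher and 6 lower. Mfsd2a, which carries lysophospholipids, had signals of 235, 5874 and 6488, the water channel Aqp4 had 152, 1476 and 1163, and the monocarboxylate transporter Slc16a7 had 1202, 5629.7 and 4974. The organic anion transporter Slc22a7 had 3024, 280.1 and 346, and the aromatic amino acid transporter Slc16a10 had 1232, 429.8 and 429, both lower. Of sphingolipid genes 4 of 19 were higher and 0 lower: the ceramide synthase Cers6 at 319, 1217 and 1027, the sphingomyelinase Smpd3 at 112, 379.5 and 264 (its other probe sets gave log2 ratios of 1.15 and -0.26), its relative Smpdl3a at 1108, 2847 and 2594 and the ceramidase Acer2 at 454, 988 and 805. The choline kinase Chka, the entry to phosphatidylcholine synthesis, was lower, at 1629, 631 and 583.

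Plasma proteins made by hepatocytes were mostly bright and slightly under WT. Complement and coagulation had 6 of 38 lower and 1 higher, with a median of -0.35 (-0.26 after quantile normalisation). The lower genes included 3 of the terminal complement complex, C6 at 6304, 707 and 1227, C8b at 10468, 1348 and 1899 and C8a at 30231, 10209 and 13859, all 3 also in the male-biased list. The others were the protease C1ra at 6451, 2854 and 2746, coagulation factor XI (F11) at 3909, 849.5 and 926 and antiplasmin (Serpinf2) at 16307, 7324 and 7839. Von Willebrand factor (Vwf), made by endothelium, was higher, at 89.4, 263 and 251. Acute phase proteins had 2 of 29 higher, Orm3 at 212, 1257 and 984 and lipocalin (Lcn2) at 1753, 7838 and 11808, and 3 lower, among them the serum amyloids Saa2, at 35059, 5092 and 8722, and Saa1, at 51623, 17667 and 25302. Among serpins thyroxine-binding globulin (Serpina7) had 1543, 6488 and 7729. Among the brightest genes on both arrays, carbonic anhydrase Car3 had 69102, 49803 and 48368, transthyretin (Ttr) 56656, 44143 and 42652, and betaine-homocysteine methyltransferase (Bhmt) 57237, 50470.4 and 51688. Of the 191 genes with a mean signal of 20000 or more, 7 were lower and 0 higher. Mat1a, which makes S-adenosylmethionine, and the acyl-CoA dehydrogenase Acadm lay furthest above WT among them, at log2 ratios of 0.94 and 0.76. Markers of hepatocytes, the source of these proteins, had a median of -0.27, which quantile normalisation brought to 0.02.

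Chaperones of the endoplasmic reticulum lay below WT as a list, with a median of -0.59, 3 of 24 lower and 0 higher. Sdf2l1 had signals of 2484, 494 and 929.7, the degradation factor Derl3 1154, 232 and 261 and the disulfide isomerase Pdia6 7289, 2642 and 3153. The main chaperone of this compartment, Hspa5, was at 25943, 15610.1 and 18609.7, a log2 ratio of -0.73. Stress and growth arrest genes were different: 10 of 29 immediate early and stress genes were higher and 1 lower, with a median of 0.65. Gadd45a, induced by DNA damage and starvation, had 182, 933 and 649, and the cell cycle inhibitor Cdkn1a had 183, 891 and 803. Tnfaip3, a brake on NF-kB, had 81.7, 366 and 375. The transcription factor Klf6 had 164, 539 and 542, Myc had 107, 269 and 159.8, and the phosphatase Dusp6 had 1364, 3209 and 2664. Egr1 was lower, at 4023, 1348 and 814. Of the cell cycle's S and M phase genes 0 of 14 reached 2-fold in either direction.

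Annexins and S100 proteins, calcium-binding proteins of membranes and the cytoskeleton, had 7 of 16 higher and 0 lower, with a median of 0.77. Anxa2 had signals of 531, 4205 and 3662. Its partner S100a10 had 5833, 19896 and 19329.7 and was higher on all 3 probe sets. Anxa5 had 2396, 10745 and 9756, and Anxa1 had 335, 911 and 851. Galectins bind galactosides on cell surfaces. Lgals3 had 298, 2628 and 2084 and Lgals1 had 1347, 12977 and 11755, and both probe sets of Lgals1 were higher, at log2 ratios of 3.27 and 3.58. Ly6d, a membrane-anchored surface protein, had 130.3, 4907 and 3964 (37.7-fold higher). In the same list of cytoskeleton and adhesion, E-cadherin (Cdh1) had 3061, 339 and 379.5, 9.03-fold lower, and the tight junction protein Cldn1 3652, 1601 and 1358. Vimentin (Vim) was higher at 933, 1984 and 1891 and gamma-actin (Actg1) at 4620.4, 10029 and 9459.6, and beta-actin (Actb) was at a log2 ratio of -0.37.

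Markers of other cells in a liver sample moved with some of these genes. In bulk tissue fewer cells of a type and less RNA per cell cannot be told apart. Kupffer cell and macrophage markers had 10 of 31 higher and 1 lower, and a summed signal of 71451, 98586 and 93017 on the 3 arrays. Genes of lipid-associated macrophages were among the higher ones, with the elastase Mmp12 at 18.3, 624 and 544 and Gpnmb at 60.8, 554 and 522, and the class II molecule H2-Aa was higher on all 4 probe sets, with 2914, 6005 and 5443 on the brightest. Of 21 markers of resident Kupffer cells 5 were higher and 1 lower, and 17 had a log2 ratio above 0, with a median of 0.65. The 4 below 0 were Clec4f at -0.21, Timd4 at -0.70, Marco at -0.95 and the scavenger receptor Cd163 at -1.08. Stellate cell and matrix markers had 3 of 33 higher and 1 lower, and the fibrillar collagen Col1a1 was at 61.1, 103 and 122. Col6a2, 1 of the higher ones, had 75.1, 321 and 299, but a probe set of nearly the same brightness had 277.9, 213 and 188, a log2 ratio of -0.38. Endothelial markers had 2 of 15 higher, Lyve1 at 478, 1856 and 1714 and Vwf. The defining genes of adipocytes were near background: adiponectin (Adipoq) had 17.2, 41.3 and 23.5 and resistin (Retn) 66.5, 22 and 77.8, all under the floor. The 3 higher genes of the 4 measured in that list were Cidec, Pparg and Fabp4. Of 8 neutrophil markers 2 were higher, S100a8 at 97.7, 312 and 887 and S100a9 at 84.6, 208 and 542. The part of these cells in the values of Lgals3, Anxa2, the class II genes and S100 proteins was not tested.

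Transcription factors of the hepatocyte lineage and interferon-induced genes held single genes far from WT. Of 21 lineage factors 3 were higher and 2 lower. Besides Onecut1, the pioneer factor Foxa1 was lower at 1933, 572 and 541, and Cebpd, a factor of the acute phase response, was higher at 302, 872 and 1203, with a dim probe set at a log2 ratio of -0.06. The lineage factor Hnf4a was at a log2 ratio of -0.21. Of 28 interferon-induced genes 3 were higher and 3 lower. Ubd, a ubiquitin-like protein, was at least 10.1-fold higher, at 76, 836 and 732. The guanylate-binding protein Gbp2 was higher at 186, 462 and 372, while the GTPase Ifi47 was lower at 2941, 968 and 1332 and the transcription factor Stat2 at 313, 122 and 184. These genes therefore had no common direction. Of 22 genes of liver zonation 3 were lower and 0 higher. They were Cyp1a2, Cyp2c37 and Gulo, the last at 8317, 2874 and 3069. All 3 were among the 12 measured pericentral genes of the list, and 0 of the 10 periportal ones were lower. Over all genes 3.71% were lower. The median log2 ratios of the pericentral and periportal genes were close, at -0.13 and -0.14.

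With 2 arrays, a gene's own further probe sets are the only check on its value. Of the 976 genes 2-fold apart, 381 had another measured probe set. For 160 of these (42.0%) another probe set was 2-fold apart in the same direction, for 110 every other one was, and for 302 (79.3%) every other one had the same sign. Another probe set was 1.5-fold apart the opposite way in 19 genes and 2-fold in 6. Among 4952 genes under 2-fold with another probe set, 614 (12.4%) had one that was 2-fold apart in either direction. That is a looser measure than the same direction asked of the 381 genes. Other probe sets of genes under 2-fold were higher in 127 cases and lower in 539. Of the other probe sets of the 381 genes, those at least 50% as bright as the first shared its sign in 89.0% of 246 cases. Those between 10 and 50% did so in 80.8% of 260, and dimmer ones in 84.5% of 71. The spread of log2 ratios was 0.36 (SD pooled over 1314 genes) among probe sets with a signal of 1000 or more on either saline array. Dimmer probe sets of the same genes were left out of this figure.

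**Figure D4:**
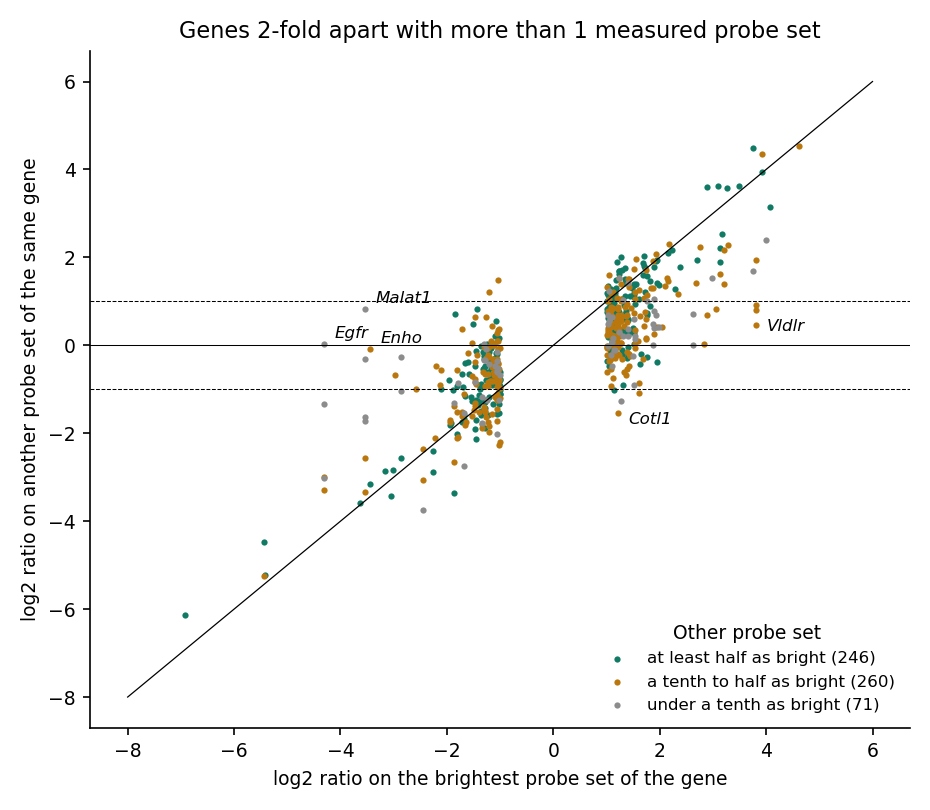
Log2 ratio of Lepob/Lepob saline over WT saline on the brightest probe set (x axis) and on each other measured probe set of the same gene (y axis), for genes 2-fold apart on the brightest; colour gives the brightness of the other probe set relative to the first, the diagonal marks equal values and dashed lines 2-fold. Large ratios such as those of Slco1a1 and Cd36 lie near the diagonal, while a dim probe set of Egfr, at 0.03, and one of Enho, at -0.08, lie near 0.

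Osbpl3, an oxysterol-binding protein, had 52.3, 1401 and 1353 and a log2 ratio of 3.15 on its second probe set. Rad51b, a DNA repair protein, had 55.1, 1346 and 1178 and no second measured probe set. Several genes had probe sets that disagreed widely. Malat1, a nuclear noncoding RNA, had signals of 33503, 2891 and 6408 on its brightest probe set. Its 6 other probe sets ranged in log2 ratio from -3.33 to 0.83, the last with 277, 491 and 454. Cotl1, an actin-binding protein, was higher on its brightest probe set, with 963, 2243 and 1889, and lower on another, with 1161, 396 and 572. Rgs16, a regulator of G-protein signalling, was higher on all 3, with log2 ratios of 1.69, 3.75 and 4.50, which differ in size and not in direction. Genes with 3 or more probe sets that were all at least 2-fold apart numbered 11 higher and 16 lower. Besides those already named, the higher ones included Ivns1abp, which interacts with actin, at 6128, 14338 and 12408, and the pro-apoptotic Bcl2l11 at 275, 586 and 579. The lower ones included the lectin-like receptor Clec2h at 1204, 251 and 214, the kinase Camk1d at 1697, 468 and 459, the tetraspanin Tspan33 at 939, 246 and 258, the kynurenine aminotransferase Kyat1 at 2254, 684 and 835 and angiogenin (Ang) at 35867, 15594 and 22800.1.

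Genes were also placed in chromosome order. Of the 10 nearest measured genes on each side of Lep, 16 were under 2-fold. The 4 others were Snd1 at 1594, 655 and 722, Prrt4 at 264, 129.5 and 107, Irf5 at 483, 233 and 188 and Hilpda, a droplet protein, at 106, 242 and 149.9. Over all genes the share 2-fold apart was 8.16%. After quantile normalisation Prrt4 and Irf5 were under 2-fold, at log2 ratios of -0.87 and -0.94. Prrt4 changed sign when the median over its probe sets was taken (0.17). Among 11937 genes placed in order, runs of 3 or more neighbours that were all 2-fold apart in 1 direction numbered 7, with 23 genes. Besides the Acot cluster they were Kctd2, Trim80 and Slc16a5 on chromosome 11, with Slc16a5, a monocarboxylate transporter, at 80.4, 1094 and 826, and Setd4, Cbr1 and Cbr3 on chromosome 16. A run on chromosome 9 held the phospholipid scramblases Plscr1 at 631, 1473 and 1381, Plscr2 at 563, 1472 and 1423, and Plscr4 at 124, 350.1 and 287. Probe sets of the Gpr137b pair and of Plscr1 can bind a neighbouring copy. The other runs were Gpr137b-ps, Gpr137b and Nid1, then Gm36457, Gbe1 and Robo1, all higher, and Lama3, Ttc39c and Cabyr, all lower, with Ttc39c at 13496, 3857 and 3698.

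The series holds the same contrast in male rats 20 weeks old on an F344/NSlc background, also with saline and 1 array a side. The mutant carries a leptin allele written Lepmyo/Lepmkyo in its title and genotype, and Lepob/Lepob in its source. Matched by identical symbol, 8303 genes were measured in both species. There 241 (2.9%) were higher in the rat mutant and 105 (1.26%) lower. Of the 360 of these genes higher in the mouse mutant, 61 (16.9%) were higher in rats, which is 25.3% of the rat's 241. Of the 264 lower in mice, 15 (5.68%) were lower in rats, 14.3% of the rat's 105. Opposite directions were seen for 9 genes higher in mice and 3 lower in mice. Across the 8303 genes the log2 ratios of the 2 species had a Pearson r of 0.22 and a Spearman rho of 0.22. Genes are not independent replicates, and array chemistry and background differ between species.

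**Figure D5:**
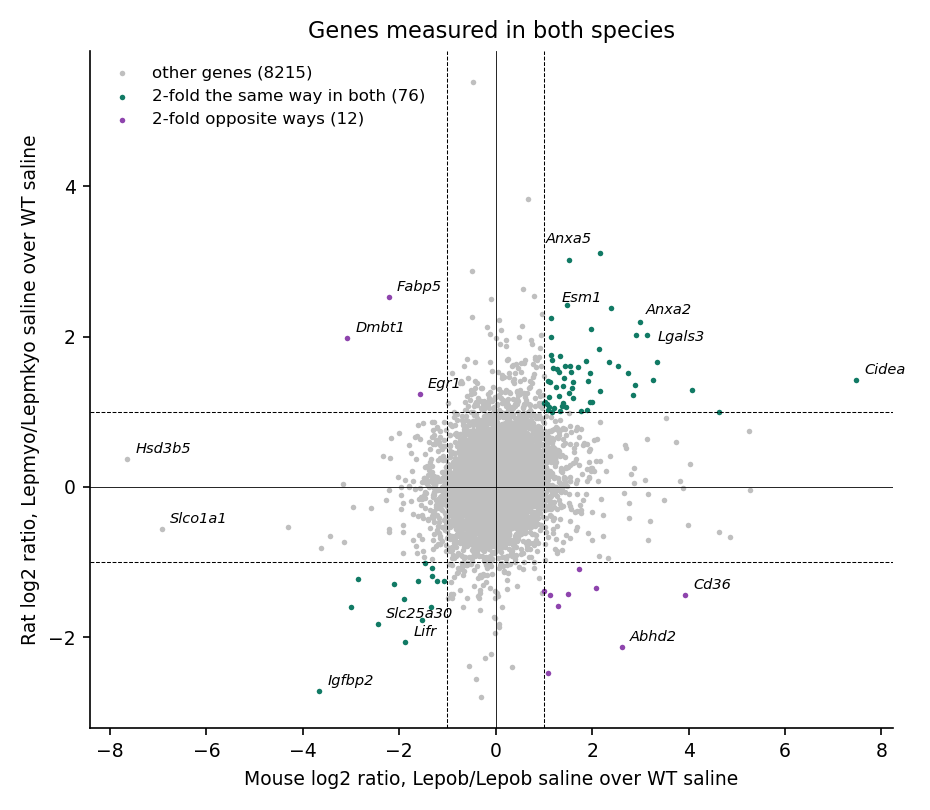
Log2 signal ratio of mutant saline over WT saline in mice (x axis) and rats (y axis) for 8303 genes measured in both, 1 array a side in each species; dashed lines mark 2-fold. Igfbp2, Anxa2 and Anxa5 are among 76 genes 2-fold apart the same way in both (green), Cd36 and Fabp5 among 12 apart in opposite ways (purple), and Hsd3b5 and Slco1a1 are far from 0 in mice and under 2-fold in rats.

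Shared directions held several of the genes above. Igfbp2 had a log2 ratio of -3.66 in mice and -2.72 in rats, with rat signals of 1953 and 297 on the WT and mutant arrays. Anxa5 had 2.16 and 3.11, Anxa2 2.99 and 2.20, Lgals3 3.14 and 2.02, and both values were bounds for Mmp12, at 2.92 and 2.03, and for the endothelial proteoglycan Esm1, at 2.39 and 2.38. Lifr had -1.87 and a bound of -2.06, and Slc25a30 -2.44 and -1.83. The phosphate transporter Slc20a1 had 1.98 and 2.10, and Tnfaip3 a bound of 2.15 and 1.84. Some lists far from WT in mice were near WT in rats. Of 11 male-biased genes measured in both, 10 were lower in mice and 0 in rats, and of 18 sterol synthesis genes 11 and 0. Of 13 genes of the PER and DBP arm 10 were higher in mice and 1 in rats. The sex-biased lists were drawn up for mice, and the difference between species was not tested.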

How the data were processed

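Liver total RNA was extracted with Trizol, labelled with biotin and, per the labels' protocols, read on Affymetrix arrays. The deposited table holds 1 linear intensity per probe set, made by the authors with MAS5, a version not given in the sources used here. The arrays' trimmed means were equal. Depth does not apply to arrays, and their number, 1 per group, limits the precision. No test, interval or p-value was computed.

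All else was computed from these intensities with Python 3.11.15, numpy 2.4.6 and pandas 2.3.3. Of 45037 mouse probe sets, 34945 had 1 gene symbol, 932 had several and 9160 none, and only the first were used. Symbols were updated by gene ID to RefSeq (GRCm38.p6). A floor was set at each platform's overall median intensity, 82.7 for mouse and 97 for rat. A gene took its brightest probe set over the 3 mouse arrays. Each ratio was also taken after quantile normalisation, after centring arrays on their medians, with floors at the 25th and 75th percentiles, as the median over probe sets, without probe sets marked _s_at or _x_at, and at other fold thresholds. The calculation was tested on simulated arrays.

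The lists, and the rules for naming genes, were chosen with earlier results of these data known, and the members' counts are descriptions. Named genes were the largest ratios in each direction and, in each list, the members furthest from WT with members of opposite direction. Genes with several probe sets that agreed or disagreed, genes 2-fold apart in both species, the brightest genes, neighbours of Lep and adjacent runs were named too. A few members near WT were named after their values were seen.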

Additional observations from a re-analysis of the deposited data

Results flagged for a closer look

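Of 12 genes at least 2-fold apart in both species in opposite directions, the 10 with the largest ratios on both sides are given. Each rests on 1 array a side, and the difference between species was not tested. Signals are given as WT and mutant, both saline. Dmbt1, a secreted scavenger receptor of epithelia, had a log2 ratio of -3.08, a bound, in mice (699 and 45.3) and 1.98 in rats (124 and 486). Fabp5 had -2.22 in mice and 2.52 in rats (929 and 5336), and Egr1, an immediate early transcription factor, had -1.58 and 1.24 (1996 and 4702 in rats). These 3 were lower in the mouse mutant and higher in the rat one.

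The other 7 were higher in the mouse mutant and lower in the rat one. Cd36 had 3.93 in mice and -1.44 in rats (4551 and 1676). Fabp7 had 1.29 in mice and -1.58 in rats (6519 and 2176), so 3 proteins of fatty acid uptake and binding, with Fabp5, had opposite directions in the 2 species. The carnitine importer Slc22a5 had 1.5 in mice and -1.42 in rats (1773 and 661), and a dim mouse probe set had -0.24. The peroxisomal oxidase Hao2 had 1.72, a bound, in mice and -1.09 in rats (12447 and 5843). Abhd2, a lipase, had 2.62 in mice (862 and 5295) and -2.13 in rats (2868 and 655), and its mouse probe sets differed widely among themselves. Noct, a rhythmic phosphatase, had 2.09 in mice (269 and 1146) and -1.34 in rats (1242 and 489.6). Gadd45b, a stress-induced gene, had 1.14, a bound, in mice (24.5 and 182) and -1.44 in rats (1306 and 481). Another mouse probe set of Gadd45b had -1.01 (166.9 and 73.3), the direction of the rat, so its opposite direction rests on the choice of probe set.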

How the results depend on the processing

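The counts of genes followed the settings more than single genes did, and the cause was not tested unless the setting itself gives it. Against 533 higher and 443 lower genes, arrays centred on their medians gave 962 and 235. A floor at the 25th percentile (24.2) gave 984 and 1341, and one at the 75th (385.3), which leaves fewer genes, gave 267 and 198. By construction the counts also moved with the fold threshold: 1469 and 1501 at 1.5-fold, 167 and 109 at 3-fold, and 93 and 54 at 4-fold. The overlap with rats, 76 genes, was 158 with the lower floor and 37 with the higher one, and the 160 genes with another agreeing probe set became 281 and 75. Quantile normalisation, the median over probe sets and leaving out _s_at and _x_at probe sets kept every one of these counts within 1.5-fold where it could be computed. The log2 ratio of Epcam became 0.19 with centred arrays, that of Prrt4 0.17 as the median over its probe sets, and that of Cotl1 -1.55 without _s_at and _x_at probe sets. Under quantile normalisation 1281 of the ratios of named or listed genes moved by less than the spread between probe sets, and 2 by more. No paired analysis was possible because each group holds 1 array. Signals near the floor carry the widest error, and a ratio with 1 array under it is only a bound.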

Other observations

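Probe sets that did not represent a gene showed a different balance of directions from those that did. The probe set standing for a gene was the brightest by its mean over the 3 mouse arrays, most of them mutant. That choice itself favours probe sets higher in the mutant and leaves lower ones among the other probe sets of named genes. Its share in the difference was not tested. Of the probe sets that stood for a gene, 4.46% were at least 2-fold higher and 3.71% lower. Among 9087 other measured probe sets of named genes, 237 (2.61%) were higher and 648 (7.13%) lower, with a median log2 ratio of -0.17. Among 3739 measured probe sets with no symbol or several, 104 (2.78%) were higher and 180 (4.81%) lower, with a median of -0.14. After quantile normalisation the first of these groups had 296 higher and 502 lower, and the second 128 and 118. With arrays centred on their medians they had 453 and 364, and 190 and 93, so the direction of the balance depends on the scaling.

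Within genes the lower direction also held more calls under each scaling, by a margin that depended on the scaling. The choice of the brightest probe set bears on these counts as well. Of 8481 other probe sets of genes whose brightest probe set was under 2-fold, 127 were higher and 539 lower. The counts were 175 and 408 after quantile normalisation and 243 and 287 with arrays centred on their medians. Nuclear noncoding RNAs gave examples on both sides. Neat1 had 6248, 7047 and 6620.1 on its brightest probe set and 295, 127 and 139 on another, while Malat1 was lower on its brightest one.

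Among 11937 genes in chromosome order, the next measured neighbour of a higher gene was also higher in 10.4% of cases, and that of a lower gene also lower in 5.42%. Over all genes 4.46% were higher and 3.71% lower.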
